A study of Homo sapiens with 24 samples.

Results

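The 10 genes described here encode the aldo-keto reductases AKR1C1, AKR1C2, AKR1C3 and AKR1B10 and the enzymes NQO1, GCLM, GCLC, TXNRD1, HMOX1 and SRXN1, which are all known targets of the transcription factor NRF2. They were chosen by name, and each was found as a single row among the 60675 Ensembl identifiers of the count table. RNA-sequencing was performed on MIA PaCa-2, a human pancreatic ductal adenocarcinoma cell line. The comparison was between cells that carry a tet-on CTRL construct (CTRL cells) and cells that carry a tet-on construct for CEBPD, the gene of C/EBPδ (C/EBPδ-inducible cells). Both were cultured in complete medium and harvested after 0, 8, 24 or 48 h of doxycycline at 2 µg/mL, with 3 libraries in each of the 8 groups and 24 libraries in all. The study seeded separate wells for each condition and calls its 24 h samples biological replicates, so p-values measure the spread between such parallel wells, and whether they were seeded on different days is not given in the sources used here. The labels list the same dose at 0 h, when the study describes the cells as untreated. Per the study, the C/EBPδ-inducible cells were a pool of 3 clones, the lines were marked with different fluorescent proteins, and the tet-on construct leaks without doxycycline. At 0 h, leaked C/EBPδ and other differences between the populations therefore cannot be told apart. The same holds for induced C/EBPδ in the differences between the lines at later times.

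NRF2, encoded by NFE2L2, is held at low levels by KEAP1, which presents it to a CUL3 ubiquitin ligase for degradation. When oxidants or electrophiles modify KEAP1, NRF2 accumulates, pairs with a small MAF protein and binds antioxidant response elements, where the repressor BACH1 competes with it. Its targets make and recycle glutathione and thioredoxin, reduce quinones and carbonyls, and break down heme. AKR1C1 to AKR1C3 reduce ketosteroids, prostaglandins and lipid aldehydes, and high AKR1C and AKR1B10 levels are a known trait of tumors with active NRF2. C/EBPδ is a basic leucine zipper transcription factor that is induced in inflammation and differentiation.

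AKR1C1, AKR1C2 and AKR1C3 are neighbors on chromosome 10, at 4963253-4983283 on the plus strand, 4987775-5018031 on the minus strand and 5035354-5107686 on the plus strand (GENCODE 44 on GRCh38). The canonical transcripts of AKR1C1 and AKR1C2 were 97.2% identical over 3209 aligned bases, and those of AKR1C1 and AKR1C3 were 90.1% identical over 1185. Of all 50-base stretches in the canonical transcript, 47.3% in AKR1C2 and 22.7% in AKR1C1 also occurred in another gene, so short reads could be shared between these genes, and how such reads were counted is not given in the sources used here. The same share was 90.6% for SRXN1, which overlaps ENSG00000270299 on the same strand, and at most 1.18% for NQO1, GCLM, GCLC, TXNRD1 and HMOX1. AKR1B10 is on chromosome 7 (134527567-134541412), NQO1 on chromosome 16 (69706996-69726668), GCLM on chromosome 1 (93885199-93909456), GCLC on chromosome 6 (53497341-53616970), TXNRD1 on chromosome 12 (104215779-104350307), HMOX1 on chromosome 22 (35380361-35394214) and SRXN1 on chromosome 20 (646615-653200). NQO1 overlaps ENSG00000261602 on the other strand and GCLC overlaps GCLC-AS1 on the other strand and ENSG00000231683 on its own, and since the strand setting is not given in the sources used here, reads in these overlaps cannot be assigned to either gene.

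Promoter sequence from RefSeq (GRCh38.p14) was found for 8 of the 10 genes, all but AKR1B10 and HMOX1, and the 250 bases before each start site were read 5′ to 3′ on the gene's strand. The windows of AKR1C1 and AKR1C2 are shown because these neighbors differed most between the lines and their windows were 99.6% identical over 246 aligned bases, against 76.8% over 241 aligned bases for AKR1C1 and AKR1C3. Both were searched on both strands for TGACNNNGC, the core of the antioxidant response element, and TTGCNNAA, a C/EBP consensus, and held neither.
AKR1C1, chr10:4963165-4963414, plus strand: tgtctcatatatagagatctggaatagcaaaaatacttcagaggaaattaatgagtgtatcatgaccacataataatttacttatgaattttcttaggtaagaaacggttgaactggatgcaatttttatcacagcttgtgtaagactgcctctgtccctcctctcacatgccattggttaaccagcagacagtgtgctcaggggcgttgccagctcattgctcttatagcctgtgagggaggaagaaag
AKR1C2, chr10:5003858-5004107, minus strand: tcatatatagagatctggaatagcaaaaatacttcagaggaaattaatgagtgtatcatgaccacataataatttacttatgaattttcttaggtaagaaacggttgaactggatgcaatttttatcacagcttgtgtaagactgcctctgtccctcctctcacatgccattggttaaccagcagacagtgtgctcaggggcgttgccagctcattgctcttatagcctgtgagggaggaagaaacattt

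The windows below are shown because they held a match, which is in capitals and which is the element core in GCLM and TXNRD1 and the C/EBP consensus in GCLC. The second TXNRD1 window held the element core too, no window held both motifs, and those of NQO1, SRXN1 and AKR1C3 held neither. Of all 35116 promoter windows of this length, 10.9% held the element core and 9.05% the C/EBP consensus, and a match is a stretch of letters rather than a binding site. Sequence outside these windows was not searched, so a window without a match does not show that the gene lacks such an element.
GCLM, chr1:93909431-93909680, minus strand: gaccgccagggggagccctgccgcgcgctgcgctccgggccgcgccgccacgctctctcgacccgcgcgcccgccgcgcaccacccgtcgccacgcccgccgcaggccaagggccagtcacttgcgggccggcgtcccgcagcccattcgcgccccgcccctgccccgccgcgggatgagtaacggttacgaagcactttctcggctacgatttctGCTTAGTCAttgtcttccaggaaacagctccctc
TXNRD1, chr12:104215529-104215778, plus strand: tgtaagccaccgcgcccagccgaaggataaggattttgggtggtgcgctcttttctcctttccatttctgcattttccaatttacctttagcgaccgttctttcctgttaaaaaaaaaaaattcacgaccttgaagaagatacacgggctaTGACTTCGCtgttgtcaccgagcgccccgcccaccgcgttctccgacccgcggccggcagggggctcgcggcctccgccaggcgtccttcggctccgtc
GCLC, chr6:53545102-53545351, minus strand: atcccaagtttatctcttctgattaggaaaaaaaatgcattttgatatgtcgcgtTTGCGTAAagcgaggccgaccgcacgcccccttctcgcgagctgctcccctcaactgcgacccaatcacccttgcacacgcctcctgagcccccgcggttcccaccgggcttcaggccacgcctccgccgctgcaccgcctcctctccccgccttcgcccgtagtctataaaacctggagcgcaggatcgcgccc

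Between 12731237 and 22598595 reads were assigned to genes per library, at which 3 counts correspond to 0.133 to 0.236 CPM. The values below are CPM, counts divided by TMM-normalized library size, given per library or as mean ± SD of 3 libraries, and changes were tested with edgeR's quasi-likelihood test at a false discovery rate (FDR) of 0.01. CEBPD was at 3.94 ± 0.247 CPM in CTRL cells and at 21.5 ± 2.35 CPM in C/EBPδ-inducible cells at 0 h, a 5.43-fold difference before doxycycline (log2 fold change 2.44 ± 0.11 SE). In C/EBPδ-inducible cells it rose to 249 ± 15.3 CPM at 8 h, 307 ± 12.6 CPM at 24 h and 204 ± 7.15 CPM at 48 h, and in CTRL cells no library passed 4.42 CPM. The epithelial keratins KRT8 (34.5 to 1592 CPM) and KRT18 (68.7 to 1174 CPM) were detected in all libraries, KRT7 and EPCAM stayed at or below 5.49 and 2.29 CPM, and VIM was at 5349 to 7000 CPM. Of the leukocyte markers PTPRC and CD3E had at most 1 count and CD14 at most 27, of the endothelial markers PECAM1 had at most 6 and CDH5 at most 44, and of the fibroblast markers DCN had at most 1 and COL1A1 at most 43, whereas COL1A2 was at 135 to 688 CPM. The part of other cell types in the results was not tested. After the values were seen, libraries were compared by genes with at least 15 counts in a library and over 3 times the CPM of any other library. By this count C/EBPδ-inducible 8 h replicate 3, the library with the fewest reads, stood apart. It had 12 such genes, among them SPRR2E, KRT6A and the mitochondrial ribosomal RNAs. CTRL 48 h replicate 2 had 3, LYZ, PLA2G2A and AKR1B10 itself, which is little more than other libraries had. No other library had more than 2, and in bulk RNA the share of cells that express a gene cannot be told apart from the RNA per cell.

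The genes did not all move in the same direction (the plot of the 10 genes by library). Between the lines AKR1C1, AKR1C2 and GCLC were higher in C/EBPδ-inducible cells at all 4 times and NQO1 was lower at all 4. At 0 h, 5 of the 8 genes tested were higher and 2 were lower, where 20% and 23.9% of all 15317 genes tested passed in these directions. At 8 h, 3 of 9 were higher and 1 was lower (14.3% and 17.4% of all genes), at 24 h 5 were higher and 2 lower (21.5% and 25.3%), and at 48 h 5 were higher and 1 was lower (17.6% and 20.7%). With background shares of this size the genes are described below by the size and direction of their differences rather than by their calls alone.

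**Figure D1:**
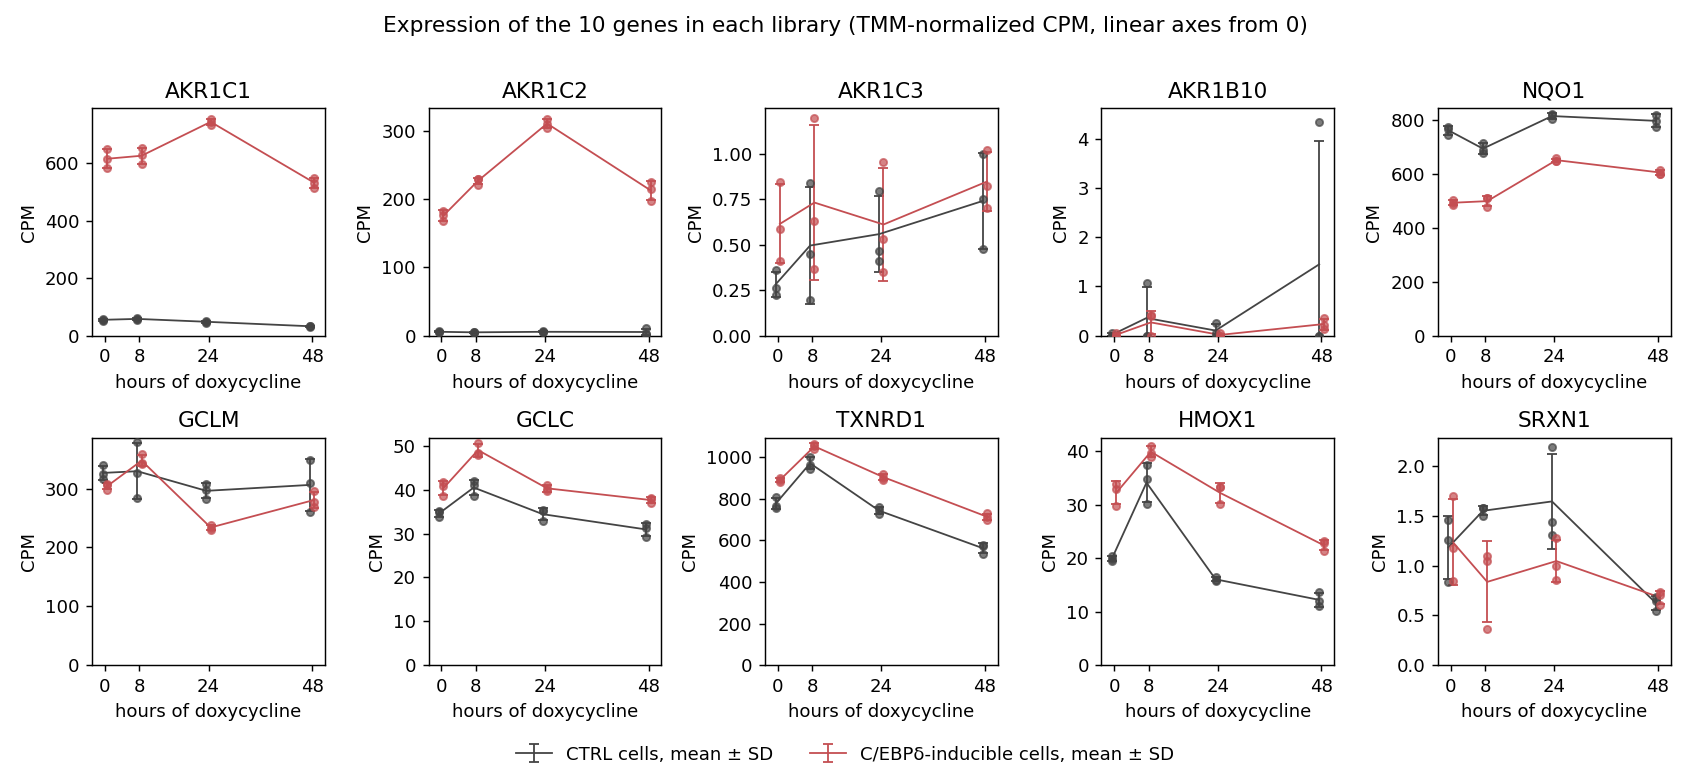
CPM of the 10 genes (vertical axes, linear and starting at 0, one scale per gene) against hours of doxycycline, with a point per library and the mean ± SD of 3 libraries in each line. AKR1C1 and AKR1C2 are far higher in C/EBPδ-inducible cells at every time, NQO1 is lower at every time, and GCLC, TXNRD1 and HMOX1 have their highest mean at 8 h in both lines.

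AKR1C1 was the most abundant AKR1C gene. At 0 h it was at 51.9, 58.1 and 55.7 CPM in CTRL cells and at 616, 583 and 650 CPM in C/EBPδ-inducible cells. The lines did not overlap, and the difference was 11.1-fold (log2 fold change 3.47, 95% CI 3.38 to 3.56, adjusted p = 2e-21 in edgeR). At 8 h it was at 55.6, 60.1 and 59.7 CPM in CTRL cells and at 652, 598 and 630 CPM in C/EBPδ-inducible cells, which is 10.7-fold and close to the 0 h ratio. At 24 h it was at 45.5, 47.4 and 52.5 CPM in CTRL cells and at 756, 745 and 734 CPM in C/EBPδ-inducible cells, which is 15.3-fold. At 48 h it was at 31.2, 34.7 and 32.7 CPM in CTRL cells and at 550, 514 and 534 CPM in C/EBPδ-inducible cells. Both lines were then below their 24 h values, and the ratio between them was 16.2-fold.

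AKR1C2 showed the largest difference of the 10 genes. At 0 h it was at 4.82, 5.50 and 6.84 CPM in CTRL cells and at 177, 167 and 183 CPM in C/EBPδ-inducible cells, a 30.4-fold difference (log2 fold change 4.92, 95% CI 4.78 to 5.07). At 8 h it was at 4.67, 5.62 and 4.45 CPM and at 230, 221 and 230 CPM, or 46.2-fold. The widest ratio, 54.0-fold, was at 24 h, when CTRL cells were at 5.26, 5.29 and 6.57 CPM and C/EBPδ-inducible cells at 305, 317 and 310 CPM. At 48 h C/EBPδ-inducible cells were at 226, 197 and 215 CPM. The CTRL libraries differed from each other at that time, with 2.64, 10.7 and 2.84 CPM (53, 183 and 54 counts), and the high value belongs to replicate 2, the library with LYZ, PLA2G2A and AKR1B10. The log2 difference between the lines at 48 h was 5.34 ± 0.28 (SE) with this library and 6.27 ± 0.10 without it.

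The AKR1C genes also changed over time in C/EBPδ-inducible cells. AKR1C1 differed little from 0 h at 8 h (log2 fold change 0.02 ± 0.04), rose at 24 h by 0.28 ± 0.03 (adjusted p = 2.94e-07) and fell at 48 h by 0.22 ± 0.03 (adjusted p = 5.78e-06). AKR1C2 rose by 0.36 ± 0.04 at 8 h (adjusted p = 5.04e-08), by 0.83 ± 0.03 at 24 h (adjusted p = 7.23e-15) and by 0.26 ± 0.04 at 48 h (adjusted p = 9.46e-06). In a model of all 24 libraries the AKR1C2 changes at 8 h and 48 h did not pass (adjusted p = 0.0578 and 0.142). In CTRL cells AKR1C1 did not pass the test at 8 h or 24 h (log2 fold change -0.18 ± 0.06 at 24 h, adjusted p = 0.038) and fell by 0.76 ± 0.07 at 48 h (adjusted p = 3.17e-06). AKR1C2 in CTRL cells did not pass at 48 h with all libraries (log2 fold change -0.13 ± 0.41). Without replicate 2 the value was -1.07 ± 0.19. That library was singled out after the values were seen, so the value without it is a description and not a test. The interaction, which compares the change from 0 h between the lines, was 0.47 ± 0.07 for AKR1C1 and 0.84 ± 0.13 for AKR1C2 at 24 h (adjusted p = 1.65e-05 and 5.22e-05), and in the model of all 24 libraries that of AKR1C2 did not pass (adjusted p = 0.157). At 48 h it was 0.53 ± 0.07 for AKR1C1 (adjusted p = 7.20e-05), while that of AKR1C2 was 0.40 ± 0.37 with all libraries and did not pass (adjusted p = 0.581). Without CTRL replicate 2 the AKR1C2 value was 1.32 ± 0.18, which is likewise a description.

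The balance between the AKR1C neighbors differed as well (the plot of the AKR1C2 share). AKR1C2 took 22.2% ± 0.213 of the reads of AKR1C1 to AKR1C3 in C/EBPδ-inducible cells at 0 h, 26.6% ± 0.483 at 8 h, 29.4% ± 0.596 at 24 h and 28.5% ± 0.697 at 48 h. The share was between 21.96% and 29.85% in each C/EBPδ-inducible library. In CTRL cells it was 23.1% in 48 h replicate 2, so the ranges of the lines overlapped, and between 6.88% and 11.04% in every other library. The 3 genes were also summed into 1 feature, which does not depend on how counted reads were split among them. Shared reads that were left uncounted would be missing from the sum and from the share alike. For the sum, the log2 difference between the lines was 3.68 ± 0.04 at 0 h, 3.74 ± 0.06 at 8 h, 4.26 ± 0.04 at 24 h and 4.26 ± 0.09 at 48 h. The sum rose in C/EBPδ-inducible cells by 0.42 ± 0.03 at 24 h (adjusted p = 1.22e-10), and at 48 h its change from 0 h was -0.10 ± 0.03 and did not pass (adjusted p = 0.020).

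**Figure D2:**
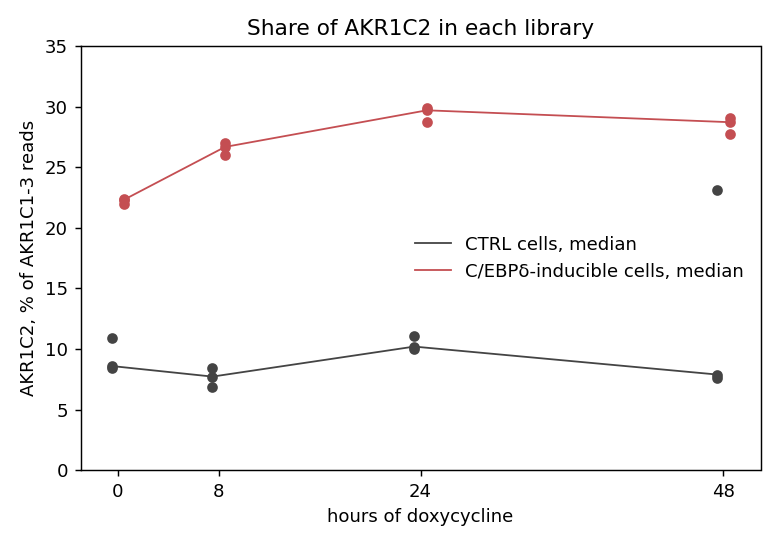
Share of AKR1C2 in the reads of AKR1C1, AKR1C2 and AKR1C3 (vertical axis, %) against hours of doxycycline, with a point per library and a line through the medians of 3 libraries. All C/EBPδ-inducible libraries lie between 21.96% and 29.85%, and among the CTRL libraries only replicate 2 at 48 h (23.1%) reaches that range.

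AKR1C3, which reduces androgen precursors and prostaglandins, did not share the level of its neighbors. It had 4 to 23 counts per library (0.197 to 1.20 CPM), under 10 counts in 11 of 24 libraries, and passed no test. Its log2 difference between the lines at 24 h was 0.15 with a 95% CI of -0.67 to 0.98, so a difference of the size seen for AKR1C1 or AKR1C2 lay outside the interval. AKR1B10, a reductase of retinaldehyde and lipid aldehydes, had 0 counts in 12 of 24 libraries and under 10 counts in 22, and was not tested. Its only higher counts were 74 in CTRL 48 h replicate 2 (4.34 CPM) and 18 in CTRL 8 h replicate 2 (1.08 CPM), while the other CTRL libraries at these times had 0.

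**Figure D3:**
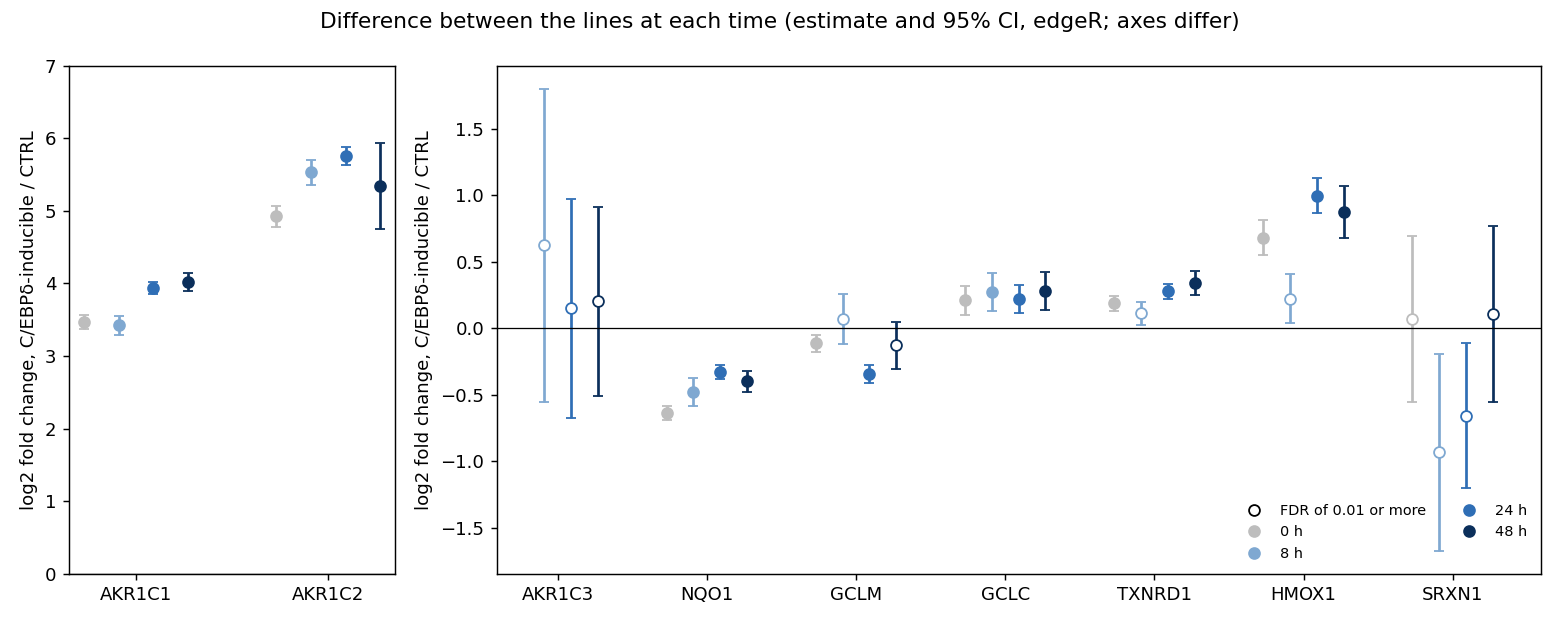
Log2 fold change of C/EBPδ-inducible over CTRL cells with its 95% CI for the 9 genes tested (vertical axes, different scales on the left and right), at 0, 8, 24 and 48 h from light to dark, with open circles where the FDR was 0.01 or more. AKR1C1 and AKR1C2 lie between 3.42 and 5.76 and HMOX1 reaches 1.00 at 24 h, whereas NQO1 is below 0 at each time.

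NQO1, which reduces quinones with NADH or NADPH and is often used as a readout of NRF2, was lower in C/EBPδ-inducible cells. At 0 h it was at 773, 744 and 768 CPM in CTRL cells and at 492, 485 and 502 CPM in C/EBPδ-inducible cells (log2 fold change -0.64 ± 0.03, adjusted p = 5.50e-14). The difference was smaller at 24 h, when CTRL cells were at 802, 818 and 824 CPM and C/EBPδ-inducible cells at 647, 648 and 657 CPM (log2 fold change -0.33 ± 0.03, adjusted p = 3.28e-11). The lines overlapped at no time. Within C/EBPδ-inducible cells NQO1 did not pass at 8 h (log2 fold change 0.01 ± 0.03) and rose by 0.41 ± 0.03 at 24 h (adjusted p = 1.12e-11) and by 0.29 ± 0.03 at 48 h (adjusted p = 2.03e-09). In CTRL cells it passed only at 24 h, by 0.10 ± 0.02 (adjusted p = 0.00953), a call that was lost with DESeq2 and without any of 5 libraries, all but CTRL 0 h replicate 1 (adjusted p between 0.0163 and 0.0695). The interaction was 0.31 ± 0.03 at 24 h (adjusted p = 3.15e-07) and 0.22 ± 0.04 at 48 h (adjusted p = 0.00253), so NQO1 rose by more in the line in which it was lower. The call at 48 h was lost without CTRL 0 h replicate 3 or C/EBPδ-inducible 0 h replicate 2 (adjusted p = 0.0110 and 0.0103).

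GCLC and GCLM encode the catalytic and the modifier subunit of glutamate-cysteine ligase, the first enzyme of glutathione synthesis. GCLC was at 33.7 to 35.2 CPM in CTRL cells and 38.5 to 41.7 CPM in C/EBPδ-inducible cells at 0 h, and the log2 difference was between 0.21 and 0.28 at the 4 times. These calls were close to the threshold (adjusted p = 0.00175, 0.00482, 5.71e-04 and 0.00280 at 0, 8, 24 and 48 h), and some were lost without a single library. These libraries were CTRL replicate 2 and C/EBPδ-inducible replicate 1 at 0 h (adjusted p = 0.0151 and 0.0197), CTRL replicate 2 and each C/EBPδ-inducible library at 8 h (between 0.0156 and 0.0330), and each C/EBPδ-inducible library at 48 h (between 0.0106 and 0.0181). GCLM had the opposite sign at 0 h and 24 h, and its call at 0 h was lost without C/EBPδ-inducible replicate 1 or replicate 2 (adjusted p = 0.0235 and 0.0109). It was at 339, 316 and 325 CPM in CTRL cells and 298, 306 and 308 CPM in C/EBPδ-inducible cells at 0 h (log2 fold change -0.11 ± 0.03, adjusted p = 0.00373), and at 308, 298 and 283 CPM against 230, 233 and 238 CPM at 24 h (log2 fold change -0.34 ± 0.03, adjusted p = 1.41e-09). At 8 h and 48 h the CTRL libraries of GCLM spread over 283 to 379 and 260 to 348 CPM, and its difference between the lines did not pass. Within C/EBPδ-inducible cells GCLM rose by 0.19 ± 0.03 at 8 h, fell by 0.37 ± 0.03 at 24 h and fell by 0.13 ± 0.03 at 48 h. GCLC rose there by 0.27 ± 0.04 at 8 h and did not pass at 24 h or 48 h. In CTRL cells the change of GCLC at 8 h was close to this, 0.25 ± 0.06, but did not pass (adjusted p = 0.0541). The interaction of GCLC at 8 h was 0.05 ± 0.08 (adjusted p = 0.749). The fall of GCLM at 48 h was lost without replicate 2 or 3 at 0 h or replicate 2 at 48 h (adjusted p = 0.0149, 0.0119 and 0.0146). The interaction of GCLM at 24 h was -0.23 ± 0.05 (adjusted p = 0.00113). In CTRL cells GCLM was just outside the threshold at 24 h (log2 fold change -0.14 ± 0.03, adjusted p = 0.0104). With the replicate number kept as a block it passed (adjusted p = 0.00366). No label pairs these samples, and the pairing was inferred from weak correlations of their deviations.

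TXNRD1, the cytosolic thioredoxin reductase, was among the most abundant of the genes and followed a similar course in both lines. At 0 h it was at 767, 755 and 807 CPM in CTRL cells and at 890, 881 and 901 CPM in C/EBPδ-inducible cells (log2 fold change 0.19 ± 0.03, adjusted p = 4.42e-06). It rose at 8 h in CTRL cells, to 946, 963 and 1004 CPM, and in C/EBPδ-inducible cells, to 1056, 1037 and 1065 CPM, by 0.35 ± 0.04 and 0.23 ± 0.02 on the log2 scale. The rise in CTRL cells was lost without CTRL 0 h replicate 1 or 2 or CTRL 8 h replicate 2 (adjusted p = 0.0108, 0.0145 and 0.0105). At 48 h it fell in both, by 0.47 ± 0.04 and 0.33 ± 0.03, and the interaction did not pass at any time (adjusted p = 0.248, 0.109 and 0.108 at 8, 24 and 48 h). SRXN1, the sulfiredoxin that repairs overoxidized peroxiredoxins, had 7 to 48 counts per library (0.368 to 2.19 CPM) and passed no test, and most of its sequence is shared with the overlapping gene.

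HMOX1, the inducible heme oxygenase, was at 19.9, 19.5 and 20.4 CPM in CTRL cells and at 29.8, 33.9 and 33.0 CPM in C/EBPδ-inducible cells at 0 h (log2 fold change 0.68 ± 0.06, adjusted p = 1.94e-08). At 8 h it rose to 34.9, 37.4 and 30.1 CPM in CTRL cells (log2 fold change 0.80 ± 0.09, adjusted p = 5.78e-04) and to 41.0, 39.0 and 39.7 CPM in C/EBPδ-inducible cells (log2 fold change 0.30 ± 0.05, adjusted p = 1.05e-04). The lines were then closest, and their difference of 0.22 ± 0.08 did not pass. At 24 h HMOX1 in C/EBPδ-inducible cells was back at 33.3, 33.4 and 30.1 CPM, while in CTRL cells it was at 16.48, 15.96 and 15.75 CPM, below its 0 h values, and the ratio of the lines was 2.00-fold. That fall in CTRL cells, of 0.31 ± 0.06 (adjusted p = 0.00289), was not called by DESeq2 or without CTRL 0 h replicate 3 or any CTRL 24 h library (adjusted p of up to 0.0226). At 48 h HMOX1 fell in both lines, by 0.71 ± 0.09 in CTRL cells and 0.53 ± 0.06 in C/EBPδ-inducible cells.

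Over time, therefore, the genes fell into different courses (the plot of changes from 0 h). In CTRL cells 2 of 8 genes tested were higher at 8 h, HMOX1 and TXNRD1, and none was lower, where 0.905% and 0.793% of all genes passed. At 24 h 1 was higher and 1 was lower (2.81% and 3.25% of all genes), and at 48 h 0 were higher and 3 were lower (15.2% and 14.7%). In C/EBPδ-inducible cells 5 of 9 genes tested were higher at 8 h and 0 were lower (14.6% and 15.8% of all genes), 3 were higher and 1 was lower at 24 h (7.33% and 8.14%), and 2 were higher and 4 were lower at 48 h (19.1% and 19.5%). The interaction called 0 of 9 genes at 8 h with edgeR (0.887% of all genes higher and 0.77% lower). DESeq2 called 2, AKR1C2 (0.61) and HMOX1 (-0.46), for which edgeR gave an adjusted p of 0.0196 and 0.017. It called 3 higher and 1 lower at 24 h (2.86% and 2.98%) and 2 higher and 0 lower at 48 h (2.83% and 2.72%). The comparisons at different times share the 0 h libraries of each line.

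**Figure D4:**
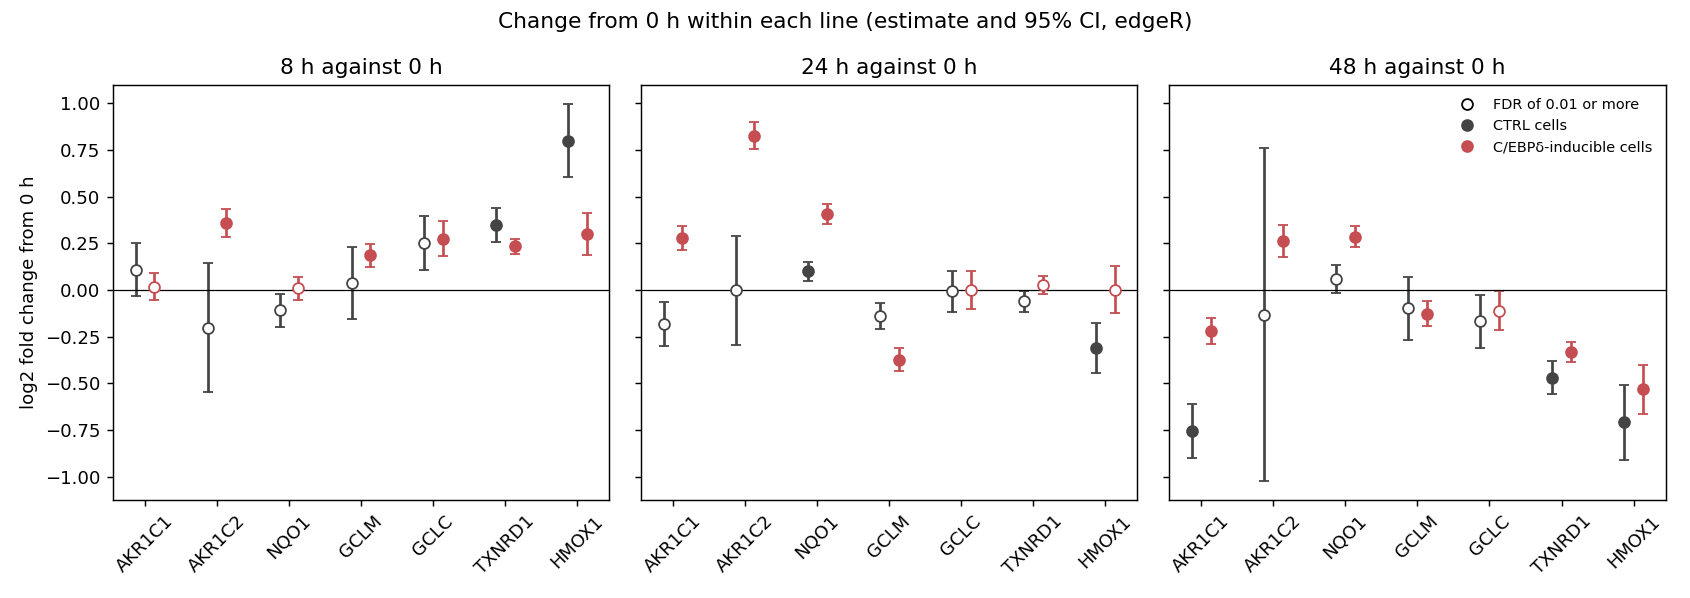
Log2 fold change from 0 h with its 95% CI (vertical axis) of 7 genes in CTRL and C/EBPδ-inducible cells, after 8, 24 and 48 h of doxycycline, with open circles where the FDR was 0.01 or more. AKR1C2 and NQO1 rise by 0.83 and 0.41 in C/EBPδ-inducible cells at 24 h, HMOX1 and TXNRD1 rise in both lines at 8 h and fall in both at 48 h, and the wide interval of AKR1C2 in CTRL cells at 48 h comes from replicate 2.

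Per kilobase of annotated exons the order of the genes differed between the lines at 0 h. In CTRL cells NQO1 led (256 ± 5.33 CPM per kb), followed by TXNRD1 (116 ± 4.07), GCLM (60.2 ± 2.21), HMOX1 (8.65 ± 0.20), AKR1C1 (6.31 ± 0.358), GCLC (4.01 ± 0.0935), AKR1C2 (0.940 ± 0.169) and SRXN1 (0.468 ± 0.125). In C/EBPδ-inducible cells AKR1C1 (70.3 ± 3.86 CPM per kb) stood above GCLM (56.0 ± 0.995), and AKR1C2 (28.9 ± 1.30) above HMOX1 (14.0 ± 0.929). By this length AKR1C3 and AKR1B10 were lowest in both lines, and each pair of neighbors named in these orders differed by more than the sum of their SDs. The annotated exons of some genes are much longer than their canonical transcripts (8765 and 6543 bases for AKR1C1, 8618 and 3785 for GCLC, 3911 and 1186 for AKR1C3). The SDs measure the spread between libraries and not this choice. The order per kilobase of canonical transcript was not tested.

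Between the lines NFE2L2, KEAP1 and BACH1 differed by less than AKR1C1 and AKR1C2 at each time, by at most 0.54 on the log2 scale. NFE2L2 was above its CTRL level in the inducible line at 0 h and 24 h (log2 fold change 0.12 ± 0.03 and 0.27 ± 0.04), with 104 to 105 CPM against 93.7 to 98.4 CPM at 0 h, and the call at 0 h was lost with DESeq2 and without any of 5 libraries, all but CTRL replicate 3 (adjusted p between 0.0180 and 0.0357). Over time NFE2L2 rose in C/EBPδ-inducible cells by 0.31 ± 0.03 at 8 h and 0.36 ± 0.04 at 24 h. In CTRL cells its change of 0.28 ± 0.06 at 8 h did not pass (adjusted p = 0.0283). It rose there by 0.21 ± 0.04 at 24 h, a call lost without CTRL 24 h replicate 2 (adjusted p = 0.0127). The interaction of NFE2L2 did not pass at 8 h or 24 h (0.06 ± 0.07 and 0.15 ± 0.05, adjusted p = 0.635 and 0.0518). KEAP1 was higher in C/EBPδ-inducible cells at 0 h, 24 h and 48 h (0.35 ± 0.04, 0.34 ± 0.05 and 0.45 ± 0.07) and fell in both lines at 48 h, by 0.65 ± 0.07 in CTRL cells and 0.57 ± 0.05 in C/EBPδ-inducible cells. BACH1, which represses HMOX1, had changes of opposite sign in the lines at 48 h. It was at 65.6, 58.0 and 61.2 CPM in CTRL cells at 0 h and rose to 72.8, 86.8 and 80.4 CPM at 48 h (0.37 ± 0.07), and it was at 80.7, 83.4 and 83.6 CPM in C/EBPδ-inducible cells at 0 h and fell to 71.7, 66.6 and 73.6 CPM at 48 h (by 0.24 ± 0.04). The rise in CTRL cells was lost without CTRL 0 h replicate 2 or 3 (adjusted p = 0.0146 and 0.0123). Its interaction was -0.36 ± 0.07 at 24 h (adjusted p = 4.95e-04) and -0.62 ± 0.08 at 48 h (adjusted p = 6.53e-05). HMOX1 did not pass the interaction at these times (0.32 ± 0.09 at 24 h, adjusted p = 0.0221, and 0.17 ± 0.11 at 48 h, adjusted p = 0.409).

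The other genes of the pathway were read from 7 lists, of which 63 genes were in the table. At 24 h, 30 of the 57 tested were higher in C/EBPδ-inducible cells (52.6%, against 21.5% of all genes), 11 were lower (19.3% against 25.3%) and 16 did not pass, with a median log2 difference of 0.20 against 0.01 for all genes. Among those that control NRF2, 6 of 10 were higher and 1 was lower, led by SQSTM1 (0.60 ± 0.04), an autophagy receptor that binds KEAP1, and NFE2L1 (0.39 ± 0.03), a relative of NRF2. All 6 genes of NADPH supply were tested, 5 were higher and 0 were lower, led by PGD (1.00 ± 0.03) and TALDO1 (0.31 ± 0.04) of the pentose phosphate pathway. Of the glutathione and thioredoxin genes 7 of 13 were higher and 3 were lower, with the largest differences in MGST1 and GLRX. MGST1, a membrane glutathione transferase, was at 16.2 CPM in CTRL cells and 0.281 CPM in C/EBPδ-inducible cells (-5.81 ± 0.18), and already at 16.7 and 0.252 CPM at 0 h. GLRX, a glutaredoxin, was at 0.280 and 1.22 CPM (2.07 ± 0.43), and at 0.238 and 0.442 CPM at 0 h.

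Detoxification and export genes were split as well, with 5 of 12 higher and 3 lower at 24 h. ALDH3A1, an aldehyde dehydrogenase, was at 0.335 CPM in CTRL cells and 4.47 CPM in C/EBPδ-inducible cells (3.70 ± 0.24), and CBR3, a carbonyl reductase, was at 18.7 and 3.17 CPM (-2.57 ± 0.11). CBR3 already differed at 0 h, at 21.8 and 5.45 CPM. Of the heme and iron genes 1 of 6 was higher and 3 were lower, led by FECH, the ferrochelatase (-0.62 ± 0.05), and FTH1, the ferritin heavy chain (-0.60 ± 0.03). Of the other NRF2 targets 3 of 5 were higher and 0 were lower, led by PIR (0.67 ± 0.10) and OSGIN1 (0.55 ± 0.08). Of the other aldo-keto reductases 5 of 10 were tested, 3 were higher and 1 was lower, led by AKR1B1, the aldose reductase (29.4 and 67.8 CPM, 1.20 ± 0.05), and AKR1E2 (-0.81 ± 0.09). At 0 h, 18 of 56 pathway genes were already higher (32.1% against 20% of all genes) and 12 lower (21.4% against 23.9%). At 8 h 15 of 56 were higher (26.8% against 14.3%) and 11 lower (19.6% against 17.4%), and at 48 h 23 of 57 were higher (40.4% against 17.6%) and 10 lower (17.5% against 20.7%). The shares of lower genes were thus near or below those of all genes at each time.

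**Figure D5:**
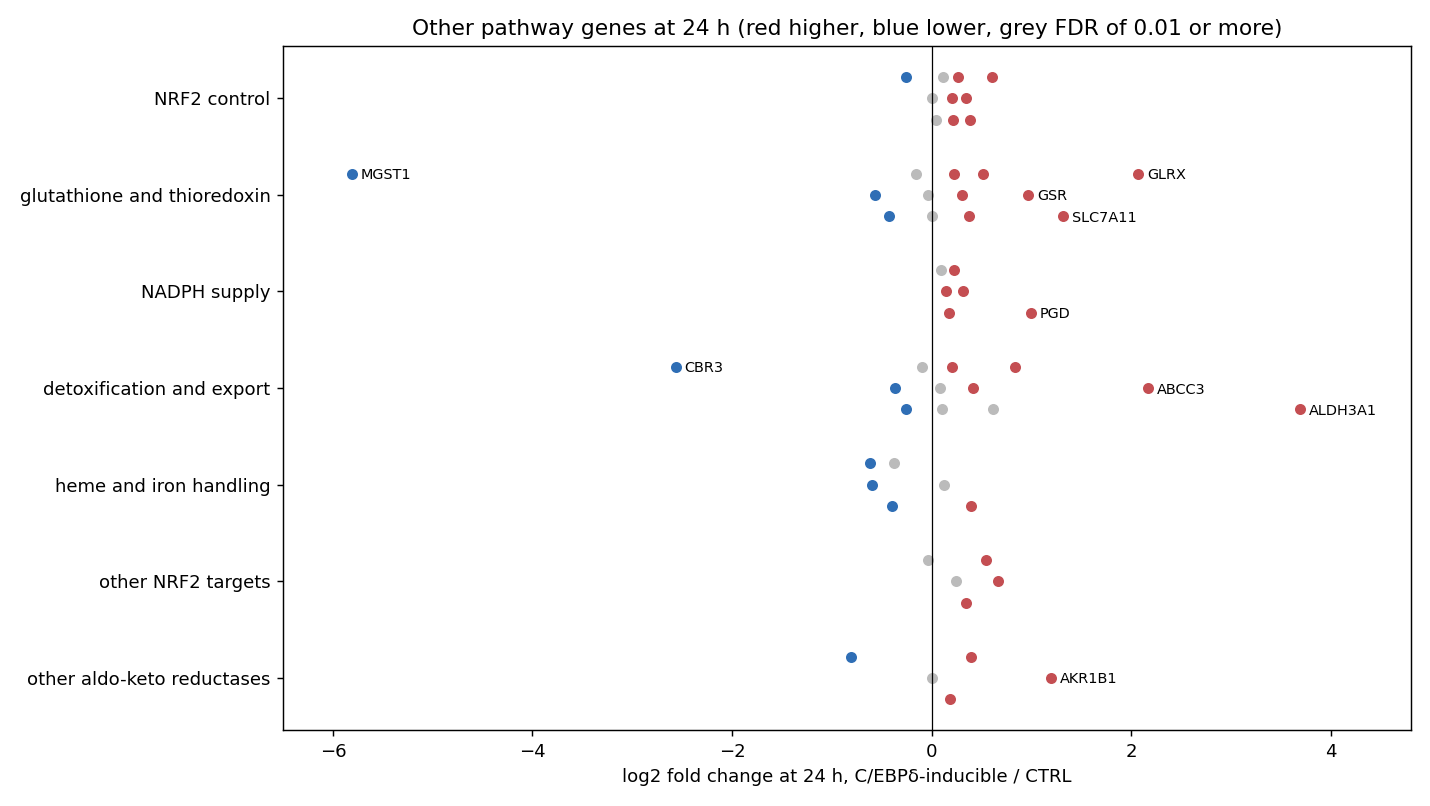
Log2 fold change of C/EBPδ-inducible over CTRL cells at 24 h (horizontal axis) for 57 other pathway genes, with a point per gene and a band per list (vertical position within a band only spreads the points). Of these, 30 were higher (red), 11 were lower (blue) and 16 did not pass (grey), and MGST1 (-5.81), CBR3 (-2.57) and ALDH3A1 (3.70) lie farthest from 0.

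From 0 h to 24 h, 27 of 57 pathway genes rose in C/EBPδ-inducible cells (47.4% against 7.33% of all genes) and 4 fell (7.02% against 8.14%), with a median log2 fold change of 0.15 against 0.00 for all genes. In CTRL cells 12 of 54 rose (22.2% against 2.81%) and 4 fell (7.41% against 3.25%), with a median of 0.00. Those that rose in C/EBPδ-inducible cells included 7 of 12 glutathione and thioredoxin genes, led by GLRX (1.46 ± 0.35) and the cystine transporter SLC7A11 (0.68 ± 0.05), 5 of 6 genes of NADPH supply, led by IDH1 (0.81 ± 0.05) and PGD (0.63 ± 0.03), 3 of 6 heme and iron genes, led by FTH1 (0.57 ± 0.03) and BLVRB (0.43 ± 0.07), and 3 of 5 other NRF2 targets, led by SESN2 (0.95 ± 0.06) and PIR (0.46 ± 0.10). Of the detoxification and export genes 7 rose and 2 fell, led by CES1 (1.98 ± 0.42) and the transporter ABCC3 (1.76 ± 0.11). CES1 was low, at 0.268 ± 0.207 CPM at 0 h and 1.035 ± 0.195 CPM at 24 h in C/EBPδ-inducible cells. In CTRL cells at 0 h CES1 was at 0.751 ± 1.25 CPM. Of the genes that control NRF2 2 rose and 2 fell, led by MAFK (-0.43 ± 0.06) and NFE2L1 (0.38 ± 0.03), and none of the 6 other aldo-keto reductases tested passed. SLC7A11, SESN2 and IDH1 rose in CTRL cells as well, by 1.51 ± 0.06, 0.84 ± 0.06 and 0.40 ± 0.05, and the interaction of SLC7A11 was -0.83 ± 0.08 (adjusted p = 4.70e-08). The interaction at 24 h was higher for 12 of 59 (20.3% against 2.86% of all genes) and lower for 4 (6.78% against 2.98%). At 8 h it was higher for 1 of 58 (1.72% against 0.887%) and lower for 2 (3.45% against 0.77%), and at 48 h higher for 8 of 59 (13.6% against 2.83%) and lower for 4 (6.78% against 2.72%).

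Across the 24 libraries the genes whose log2(CPM + 1) was most like that of AKR1C1 included MICAL2 and TENM2 (Pearson r 0.992 and 0.990), among 13704 genes with a mean of at least 1 CPM. For NQO1 they were FTH1, IRF2BPL and MIDEAS (0.957, 0.954 and 0.950), for HMOX1 MAFG, a small MAF partner of NRF2, SNX21 and ITPRIP (0.936, 0.921 and 0.920), and for AKR1B10, which rests on a few libraries, CIR1, RWDD4P2 and SPIN3 (0.710, 0.679 and 0.670). The libraries share 2 lines and 4 times, so these values describe the order of 8 groups rather than 24 independent points.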

How the data were processed

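Total RNA of 24 libraries was depleted of ribosomal RNA and sequenced, and the authors used Trimmomatic for trimming, Hisat2 for alignment to GRCh38 and HTSeq for counting per Ensembl gene. The deposited values are these raw counts, not normalized, 1 column per library. The strand setting and the treatment of reads that map to several genes are not given in the sources used here. Each gene was found by its Ensembl identifier. Comparisons used edgeR 4.0.16 (R 4.3.3): TMM factors, filterByExpr, a quasi-likelihood fit of the groups compared (for the interaction, the 4 groups it involves), and Benjamini-Hochberg adjustment over all genes tested, with a call at an FDR of 0.01. The 13 comparisons were the lines at each time, 8, 24 and 48 h against 0 h within a line, and the interaction of line and time at those hours. The procedure was tested on simulated data. The genes, the 7 lists and the tests were chosen with earlier results of these data known. In lists the 2 largest called changes of the comparison described are named. Alternatives were DESeq2 1.42.0, RLE factors, other filters on low counts, a single fit to all 24 libraries, a block on the replicate number, analysis of variance on log2(CPM + 1), the sum of AKR1C1 to AKR1C3, and fits without each single library. The replicate numbers were taken to pair samples where the deviations of every same-numbered pair correlated above 0.1, which held only for CTRL cells at 24 h against 0 h (r = 0.143, 0.147 and 0.19). No same-group pair of libraries agreed within sampling noise. Measured as chi-square per gene, the disagreement was largest for a pair of CTRL 8 h libraries (14.85), followed by a pair of C/EBPδ-inducible 8 h libraries (11.11). Promoter windows were 250 bases upstream of RefSeq starts, and transcripts, exons and overlaps came from GENCODE 44. Of the genes most like AKR1C1, 1 is not reported here.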

Additional observations from a re-analysis of the deposited data

Results flagged for a closer look

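The following differences between the lines in the change from 0 h passed the interaction test, in log2 units, C/EBPδ-inducible minus CTRL cells. CEBPD, the gene of the construct, gave 4.56 at 8 h, 3.99 at 24 h and 3.21 at 48 h. AKR1C1 gave 0.47 at 24 h and 0.53 at 48 h, AKR1C2 0.84 at 24 h, and NQO1 0.31 at 24 h and 0.22 at 48 h, all with a more positive change in C/EBPδ-inducible cells. The AKR1C2 call was lost in the model of all 24 libraries, and the NQO1 call at 48 h was lost without either of 2 libraries. GCLM gave -0.23 at 24 h, and BACH1 gave -0.36 at 24 h and -0.62 at 48 h. Groups of 3 libraries are too small for the check for a single outlying library, so CTRL 48 h replicate 2 was not tested in that way.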

How the results depend on the processing

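Of the 52 changes of the 10 genes that passed, 342 of 381 refits with another setting kept direction and call, 38 lost the call and 1 reversed, and with a library left out 320 of 348 kept both, 28 lost the call and 0 reversed. Of the 61 that did not pass, 394 of 424 refits stayed so, 18 passed and 12 reversed, and with a library left out 443 of 492 stayed so, 8 passed and 41 reversed. In these counts the sum of AKR1C1 to AKR1C3 was set against both AKR1C1 and AKR1C2. The called value that reversed was AKR1C2 in C/EBPδ-inducible cells at 48 h, set against -0.098 for the sum. This is a different feature rather than a refit of AKR1C2. With a library left out AKR1C2 itself stayed between 0.22 and 0.32. The sum also differed in sign from AKR1C2 in CTRL cells at 8 h, at 0.086, and from the AKR1C1 interaction at 8 h, at 0.041. The other reversals were of values near 0. They were AKR1C2 in CTRL cells at 24 h, at 0.0056 with no filter and 0.0052 by analysis of variance, and GCLC there at 0.0018 with no filter. GCLC in C/EBPδ-inducible cells at 24 h was -0.000181 with RLE factors, -0.000771 with at least 10 counts in every library and -0.002674 in the model of all 24 libraries, and HMOX1 was -0.000549 and -0.001753 under the latter 2. AKR1C3 there was -0.010 by analysis of variance, and the GCLC interaction at 24 h was -0.000601 with no filter.

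The number of the 10 genes called changed as follows, and the cause was not tested. In CTRL cells at 8 h it was 2, and became 4 in the model of all 24 libraries and 0 by analysis of variance. In CTRL cells at 24 h it was 2, and became 1 with DESeq2, 4 with no filter, and 0 in the model of all 24 libraries and by analysis of variance. C/EBPδ-inducible cells gave 5 calls at 8 h, 3 in the model of all 24 libraries and 1 by analysis of variance, which also gave 3 in place of 6 at 48 h and 4 in place of 7 between the lines at 0 h. The interaction at 8 h called 0, and 2 with DESeq2, 2 with no filter and 1 in the model of all 24 libraries. At 24 h it called 4, and 2 in the model of all 24 libraries and 1 by analysis of variance. Among the pathway genes CTRL cells at 8 h gave 4 calls, 8 with no filter and 13 in the model of all 24 libraries. Analysis of variance gave fewer calls there (0), in CTRL cells at 24 h (2 for 16) and 48 h (16 for 27), in C/EBPδ-inducible cells at 8 h (8 for 24), 24 h (11 for 31) and 48 h (20 for 36), between the lines at 8 h (16 for 26) and in the interaction at 24 h (10 for 16).

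With the replicate block, for which the labels state no shared batch, the 10 genes gave 1 call in CTRL cells at 8 h (TXNRD1 was lost, adjusted p = 0.0149), and GCLM and NFE2L2 lost their calls between the lines at 0 h (adjusted p = 0.0112 and 0.0151). In CTRL cells at 24 h, where the numbers were taken to pair the samples, GCLM and BACH1 gained a call (adjusted p = 0.00366 and 0.00587). The replicate block changed no other call of the genes described with their own values.

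Over all genes, the numbers called by edgeR and by analysis of variance were 6726 and 3854 between the lines at 0 h, 4946 and 2317 at 8 h, 7360 and 4317 at 24 h, and 5964 and 3167 at 48 h. In CTRL cells they were 259 and 1 at 8 h, 921 and 39 at 24 h, and 4583 and 1659 at 48 h. C/EBPδ-inducible cells gave 4693 and 1239, 2407 and 498, and 5952 and 2238, and for the interaction 269 and 82 at 8 h and 948 and 569 at 24 h. The model of all 24 libraries gave 1229 and 582 in CTRL cells at 8 h and 24 h, 3127 in C/EBPδ-inducible cells at 8 h, and 441 and 603 for the interaction at 8 h and 24 h. For CTRL cells at 8 h and the interaction at 8 h the counts were 843 and 936 with no filter, 430 and 423 with DESeq2, and 87 and 162 with the replicate block.

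With each library left out in turn, the number of the 10 genes called was 1 to 2 in CTRL cells at 8 h, 0 to 3 in CTRL cells at 24 h, 0 to 2 for the interaction at 8 h and 1 to 3 at 48 h. For the pathway genes it was 3 to 9 and 8 to 15 in CTRL cells at 8 h and 24 h, and 3 to 7 for the interaction at 8 h. The values that changed sign when a library was left out ranged, between the lines, from -0.24 to 0.27 for SRXN1 at 0 h, -0.0060 to 1.20, -0.31 to 0.47 and -0.044 to 0.45 for AKR1C3 at 8, 24 and 48 h, -0.027 to 0.18 for GCLM at 8 h and -0.0086 to 0.078 for BACH1 at 24 h. In CTRL cells they ranged from -0.078 to 0.12 for GCLM, -0.081 to 0.062 for KEAP1 and -0.036 to 0.12 for BACH1 at 8 h, -0.12 to 0.15 for AKR1C2 and -0.029 to 0.028 for GCLC at 24 h, and, at 48 h, -1.07 to 0.20 for AKR1C2, -0.20 to 0.0018 for GCLM, -0.0033 to 0.059 for NFE2L2 and -0.063 to 0.14 for CEBPD. The ranges in C/EBPδ-inducible cells were from -0.019 to 0.060 for AKR1C1, -0.34 to 0.65 for AKR1C3 and -0.0092 to 0.043 for NQO1 at 8 h, and from -0.44 to 0.31 for AKR1C3, -0.029 to 0.027 for GCLC, -0.049 to 0.049 for HMOX1 and -0.45 to 0.055 for SRXN1 at 24 h. For the interaction they ranged from -1.10 to 0.12 for AKR1C3 at 8 h, -0.014 to 0.044 for GCLC and -0.053 to 0.037 for KEAP1 at 24 h, and -0.14 to 0.065 for GCLM, -0.18 to 0.33 for SRXN1 and -0.016 to 0.050 for NFE2L2 at 48 h. AKR1C3, AKR1B10 and SRXN1 had the fewest counts of the 10 genes and the least precise values.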
